A study of Mus musculus with 6 samples.

Results

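The voltage-gated and potassium channel genes are all genes whose symbol starts with Kcn, with Scn and a digit, or with Cacna, Cacnb or Cacng and a digit, and 127 of the 19938 genes tested met that description. Of these 127, 124 encode channel subunits or their regulators and 3 are antisense or noncoding transcripts that carry a Kcn symbol. RefSeq lists 138 such symbols, and the other 11 were not analysed here. Messenger RNA was measured in 3 samples of murine prostate cancer cells given valproic acid (VPA) and in 3 control samples, each described as a biological replicate and hybridised to an Affymetrix mouse Gene ST array. The labels do not say whether the replicates were separate cultures, so p-values measure the spread between these samples, and they state no dose, duration or cell line. The groups follow the sample titles. For the same samples the strain and cell type fields name undifferentiated stem cells of strain Stra8-EGFP/Rosa26 in the VPA group, against differentiated stem cells of strain 129SV in the control group, so each direction below rests on the titles.

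Ion channels of these families set the membrane potential of a cell and shape its electrical signals. Sodium channels start an action potential, calcium channels couple it to secretion, contraction and transcription, and potassium channels end it and hold the resting potential. Each channel is built from pore-forming subunits and auxiliary subunits that change its gating or its delivery to the membrane. Most members are best known from neurons, muscle and endocrine cells, but potassium channels and some calcium channels also work in epithelia and in dividing cells. VPA is an antiepileptic drug that inhibits class I histone deacetylases and also acts on voltage-gated sodium channels, so the comparison here asks whether the transcripts of these channels differ between VPA and control cells.

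Values are log2 signals made by the authors with RMA, which normalizes all arrays to a common distribution and gives no detection call. Differences are VPA minus control on that log2 scale, and a gene was called when limma's moderated test gave a Benjamini-Hochberg adjusted p under 0.05 over all 19938 genes. Array medians lay between 7.15 and 7.18, and the precision is set by 3 arrays per group. Channel genes had means over the 6 arrays from 5.09 to 10.28, with a median of 6.55. Of the 127, 70 lay above 6.50, the 95th percentile of 1027 olfactory receptor genes, a family that is silent in most tissues, and the other 57 lay at or below it. The median SD within groups was 0.139 for the channel genes, against 0.122 for all genes. None of 12 measured prostate epithelial markers, 12 embryonic stem cell markers, 10 muscle markers or 8 endothelial and blood markers passed the test, and of 8 fibroblast markers 1, Thy1, rose. Of the 12 stem cell markers, 11 differed below 0 and 1 above it, with a median of -0.17, against -0.035 over all genes. In 4 of the 12 every VPA array lay below the control arrays, beside 12.0% of all genes. The prostate gene Hoxb13 averaged 7.93 ± 0.10 in VPA cells and 7.88 ± 0.01 in control cells (SD, n = 3 each), while Pbsn, the prostate secretory gene probasin, averaged 3.50 ± 0.08 in VPA cells and 3.55 ± 0.19 in control cells, below the olfactory receptor percentile. Of the stem cell genes, Pou5f1 averaged 5.27 ± 0.26 in VPA cells and 5.63 ± 0.20 in control cells, also below it, and Sox2 averaged 11.26 ± 0.28 in VPA cells and 11.58 ± 0.12 in control cells. Over the 6 arrays the 12 prostate markers had a median level of 6.65 and a highest of 8.23. Of these, 8 lay above the olfactory receptor percentile. The 12 stem cell markers had a median of 6.16 and a highest of 11.42, with 4 above it. The 8 fibroblast markers had a median of 8.69 and a highest of 14.06, with 7 above it. Of the 10 muscle markers 6 lay above it, up to 13.20. Which cell type the samples hold was not tested.

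The 4 called genes were Scn1a, a pore subunit of neuronal sodium channels, Kcnab2, a cytoplasmic beta subunit of Kv1 potassium channels, Cacng7, a gamma subunit that also regulates AMPA-type glutamate receptors, and Kcnn3, a small-conductance calcium-activated potassium channel. All 4 were higher with VPA, by 1.49-fold to 1.76-fold, and 0 of the 127 were lower by the same call. That is 3.15% of the channel genes higher, beside 1.71% of all genes tested, and none lower, beside 0.632% of all genes. With p under 0.05 before adjustment, 12 channel genes were higher and 4 lower, or 9.45% and 3.15% of them, beside 9.82% and 8.30% of all genes. The groups did not overlap in 14 genes with VPA above and 12 with VPA below, or 11% and 9.45%, beside 11.1% and 12.0% of all genes. The median difference of the 127 was -0.05, against -0.035 over all genes, so the channel genes as a whole lay close to the rest of the array, and the 4 calls came from 4 different classes. In these bulk samples a larger share of expressing cells and more RNA per cell cannot be told apart.

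Scn1a (probe set 10483299) had log2 values of 6.18, 6.26 and 6.04 in VPA replicates 1, 2 and 3, against 5.63, 5.57 and 5.56 in control replicates 1, 2 and 3. The lowest VPA array lay above the highest control array, and the control arrays were close together. Scn1a rose 1.49-fold (log2 0.57, SE 0.0891, 95% interval 1.30 to 1.71, limma adjusted p = 0.0167), at a level below the olfactory receptor percentile in both groups. Kcnab2 (probe set 10518927) had 9.60, 9.26 and 9.43 in the VPA arrays, against 8.52, 8.76 and 8.84 in the control arrays. The groups were well apart, with every VPA value above 9 and every control value below it. Kcnab2 rose 1.65-fold (log2 0.73, SE 0.117, 95% interval 1.38 to 1.98, limma adjusted p = 0.0187).

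Cacng7 (probe set 10569714) had 10.71, 10.48 and 10.51 in the VPA arrays, against 9.92, 10.18 and 9.87 in the control arrays. Control replicate 2 was the control array nearest to the VPA group. Cacng7 rose 1.49-fold (log2 0.57, SE 0.109, 95% interval 1.26 to 1.76, limma adjusted p = 0.0316). Kcnn3 (probe set 10493555) had 8.12, 7.57 and 7.37 in the VPA arrays, against 6.80, 6.76 and 7.06 in the control arrays. VPA replicate 1 stood above the other VPA arrays, and the groups did not overlap. Kcnn3 rose 1.76-fold (log2 0.82, SE 0.176, 95% interval 1.34 to 2.32, limma adjusted p = 0.0477). The exact two-sided permutation test gave p = 0.1 for each of the 4 genes, the smallest value that 3 against 3 arrays allow.

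**Figure D1:**
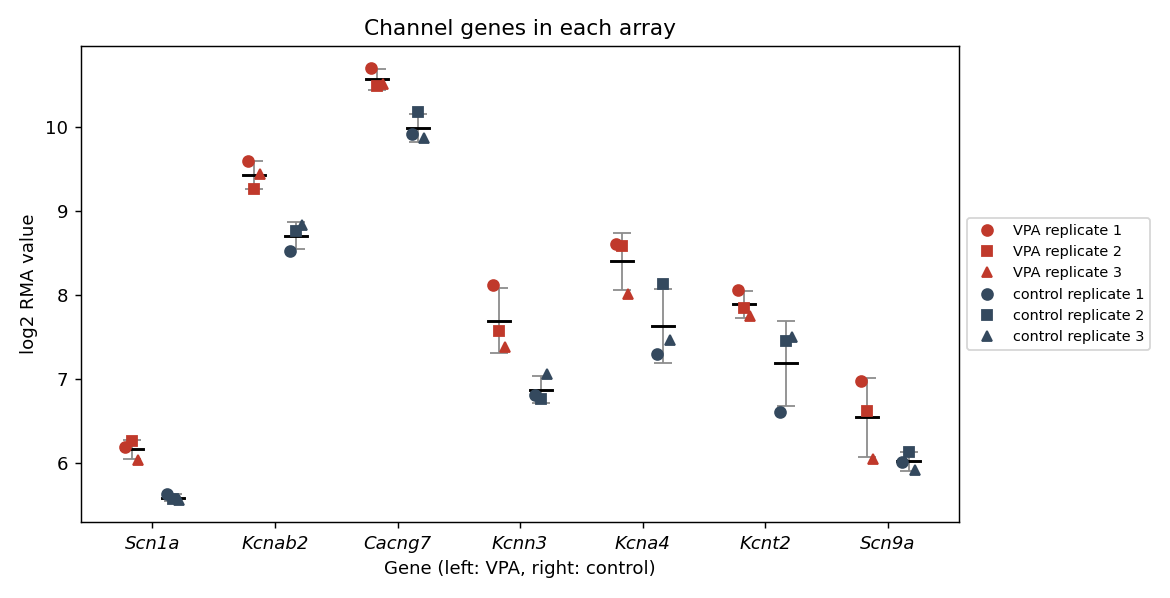
Log2 RMA values (vertical axis) of the 7 channel genes with the largest differences, for each VPA array (left of each pair, red) and each control array (right, blue). Symbols give the replicate number, black bars the mean and grey bars the SD of 3 arrays, and levels of different genes are not to be compared. Scn1a, Kcnab2, Cacng7, Kcnn3 and the uncalled Kcnt2 show no overlap between groups, whereas in Kcna4 control replicate 2 (8.12) lies above VPA replicate 3 (8.01).

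The calls depended on single arrays. Without VPA replicate 1, control replicate 1 or control replicate 3 none of the 4 genes passed, with adjusted p from 0.0734 to 0.125, 0.0703 to 0.17 and 0.0511 to 0.107, and the calls higher over all genes were 0.271%, 0.0752% and 0.266%. Without VPA replicate 2 only Kcnab2 passed (adjusted p = 0.0418), beside 0.296% of all genes higher. Without control replicate 2 the count was also 4 higher, beside 2.12% of all genes, and 0 lower, beside 0.466%, with Kcna4 in place of Kcnn3. Without VPA replicate 3 it was 6 higher (4.72%), the 4 called genes with Kcna4 and Scn9a, beside 2.98% of all genes, so the count changed together with that of the whole array. VPA replicate 3 was the lowest VPA array of Kcna4 and Scn9a, so a larger difference for both was fixed by leaving it out. The differences of the 4 called genes moved less than their calls. They stayed between 0.50 and 0.70 for Cacng7, 0.64 and 0.81 for Kcnab2, 0.60 and 0.98 for Kcnn3 and 0.52 and 0.64 for Scn1a over the alternatives that tested each gene. The filter at the olfactory receptor percentile left Scn1a untested, and Cacng7, Kcnab2 and Kcnn3 passed under it. When all 35556 probe sets of the table were tested together no channel gene passed, with adjusted p from 0.134 for Scn1a to 0.212 for Kcnn3.

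**Figure D2:**
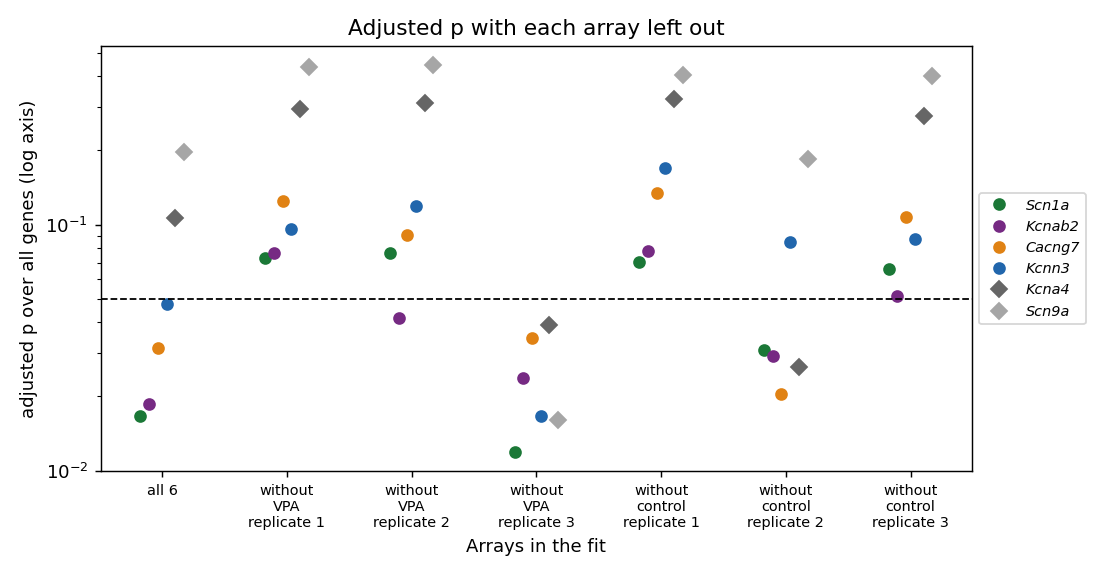
Adjusted p over all genes (vertical log axis) of the 4 called genes (circles) and of Kcna4 and Scn9a (diamonds), with all 6 arrays and with each array left out in turn (horizontal axis). The dashed line is the threshold of 0.05. All 4 circles lie above the line without VPA replicate 1, control replicate 1 or control replicate 3. Both diamonds lie below it without VPA replicate 3, the lowest VPA array of Kcna4 and Scn9a.

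The promoters of the 4 genes that rose are shown because the data single out these genes. Of the 127 genes, 97 had a promoter in the RefSeq table of build GRCm38.p6, and the 250 bases before the start are printed 5′ to 3′. Capitals mark GGCGGG, a GC box, and CCAAT, each on either strand, and in Kcnab2 a copy of each overlaps. Scn1a is on the minus strand at chr2:66440838-66441087, Kcnab2 on the minus strand at chr4:152477550-152477799 (the most upstream of 3 starts), Cacng7 on the plus strand at chr7:3332575-3332824 and Kcnn3 on the plus strand at chr3:89519914-89520163.
Scn1a: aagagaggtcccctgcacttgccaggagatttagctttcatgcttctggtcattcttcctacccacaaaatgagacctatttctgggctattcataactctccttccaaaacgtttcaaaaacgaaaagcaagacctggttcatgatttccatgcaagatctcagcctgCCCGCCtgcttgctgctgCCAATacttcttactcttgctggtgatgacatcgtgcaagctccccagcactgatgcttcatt
Kcnab2: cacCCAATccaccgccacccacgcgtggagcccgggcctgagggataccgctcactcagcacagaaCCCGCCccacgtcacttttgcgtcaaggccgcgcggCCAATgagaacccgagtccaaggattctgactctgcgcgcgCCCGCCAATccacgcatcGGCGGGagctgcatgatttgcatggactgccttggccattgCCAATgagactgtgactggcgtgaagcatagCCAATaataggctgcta
Cacng7: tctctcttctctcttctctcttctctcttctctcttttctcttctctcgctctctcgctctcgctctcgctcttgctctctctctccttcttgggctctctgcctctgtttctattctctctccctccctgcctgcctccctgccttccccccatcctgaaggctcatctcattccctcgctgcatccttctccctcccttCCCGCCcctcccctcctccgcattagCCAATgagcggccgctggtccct
Kcnn3: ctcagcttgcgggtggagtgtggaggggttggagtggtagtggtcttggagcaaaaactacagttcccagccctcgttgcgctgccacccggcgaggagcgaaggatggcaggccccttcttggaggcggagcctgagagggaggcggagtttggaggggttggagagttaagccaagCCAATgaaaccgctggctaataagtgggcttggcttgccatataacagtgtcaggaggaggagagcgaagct

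These windows differed in composition. Kcnab2 held 20 CG dinucleotides, 3 GC boxes and 5 copies of CCAAT, Kcnn3 held 10 CG and no GC box, Cacng7 held 9 CG and 1 GC box, and Scn1a held 4 CG and 1 GC box. CCAAT, which was searched for after these windows had been read, occurred in all 4, in 28.9% of the 97 channel promoters and in 35.6% of the 15614 promoters of tested genes. GGCGGG occurred in 46.4% of the channel promoters and in 45.2% of all. The median number of CG dinucleotides per 250 bases was 8 in channel promoters and 11 in all. In windows extended to 50 bases after the start, CACGTG, an E box, occurred in 5 channel promoters (5.15%), those of Kcne4, Kcnh4, Kcnj2, Kcnk5 and Kcnn4, and in 8.40% of all. TTCAGCACC, one end of the RE1 element that the repressor REST binds, occurred in 0 channel promoters and in 0.416% of all, and the other end of that element in 0 and in 0.218%.

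Among the 8 sodium channel pore subunits, Scn1a rose and 7 did not pass, with 4 differences above 0, 4 below 0 and a median of 0.04. Scn9a, the sodium channel of pain-sensing neurons, had 6.98, 6.62 and 6.04 in the VPA arrays, against 6.01, 6.13 and 5.91 in the control arrays. VPA replicate 3 lay among the controls, so the groups overlapped, and the difference of 0.53 (SE 0.197) had an adjusted p of 0.198. The second Scn9a probe set differed by 0.57 (limma, unadjusted p = 0.00884). Scn7a, a salt-sensing relative of these channels, varied most among the VPA arrays, at 6.36, 5.85 and 5.18, against 5.57, 5.83 and 5.37 in the control arrays.

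Scn2a, a pore subunit of excitatory neurons, had 7.43, 7.19 and 7.39 in the VPA arrays, against 7.40, 7.20 and 7.65 in the control arrays. The groups overlapped (difference -0.08, adjusted p = 0.767), and the 13 other Scn2a probe sets differed by -0.13 to 0.16, 5 of them with the sign of the kept one. Scn3a, Scn8a, Scn10a and Scn11a differed by -0.02, 0.10, -0.20 and -0.27, with overlapping groups in each. Sodium channel genes resemble each other closely, and 3 probe sets annotated to several of them named no gene here. The probe set shared by Scn1a and Scn3a differed by 0.08, beside 0.57 for the kept Scn1a probe set. That shared by Scn9a and Scn3a differed by 0.28, and that shared by Scn2a, Scn9a and Scn3a by 0.85. In that order the 3 shared probe sets averaged 5.90, 4.76 and 4.15 over the 6 arrays, below the olfactory receptor percentile. Of the 3 beta subunits, Scn3b differed by 0.19 (adjusted p = 0.394), Scn2b by -0.10 and Scn4b by -0.05, and none passed.

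Scn1a, Scn9a and Scn7a follow each other in the annotation with no other protein-coding gene between them, and they differed by 0.57, 0.53 and 0.20, while the neighbouring pair Scn3a and Scn2a of the same chromosome differed by -0.02 and -0.08. Cacng7 and Cacng8, also adjacent, went opposite ways, at 0.57 and -0.24. The run of Kcna5, Kcna1 and Kcna6 differed by -0.30, -0.08 and 0.07, and that of Kcna3, Kcna2 and Kcna10 by -0.05, -0.05 and 0.001, none of which passed.

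None of the 10 pore subunits of calcium channels passed. Cacna1c, the L-type channel of heart and smooth muscle, had 8.16, 7.86 and 7.79 in the VPA arrays, against 8.08, 8.22 and 7.90 in the control arrays, and its groups overlapped (difference -0.13, adjusted p = 0.599). The T-type channels, which open near the resting potential, differed by 0.06 for Cacna1g, 0.17 for Cacna1h and -0.05 for Cacna1i (adjusted p 0.803, 0.589 and 0.777), each with overlapping groups. Cacna1f, a retinal L-type channel, had the smallest p of the class, with 5.62, 5.58 and 5.71 in the VPA arrays, against 5.79, 5.75 and 5.80 in the control arrays, and a difference of -0.14 (adjusted p = 0.391). Cacna1d, an L-type channel of neurons and endocrine cells, also lay below the controls in all VPA arrays and Cacna1b, the N-type channel of nerve terminals, above them, at -0.12 and 0.13 (adjusted p 0.481 and 0.453). The other members lay between -0.14 and 0.12.

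The auxiliary subunits of calcium channels held 1 called gene, Cacng7. The 3 cytoplasmic beta subunits were past an unadjusted p of 0.05, 2 higher and 1 lower, beside 9.82% and 8.30% of all genes. None passed after adjustment, and with all probe sets fitted together Cacnb4 had an unadjusted p of 0.0654 (limma). Cacnb1, the subunit of skeletal muscle, had 7.76, 7.77 and 7.70 in the VPA arrays, against 7.55, 7.51 and 7.47 in the control arrays. Its arrays were tight within each group, and the difference of 0.23 (SE 0.0794) had an adjusted p of 0.162. Cacnb4, a brain subunit, had 7.10, 6.73 and 6.63 in the VPA arrays, against 6.57, 6.62 and 6.23 in the control arrays (difference 0.35, adjusted p = 0.242). Cacnb2, a heart subunit, ran the other way, with 6.55, 6.30 and 6.58 in the VPA arrays, against 6.73, 6.79 and 6.75 in the control arrays (difference -0.28, adjusted p = 0.172).

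Of the 7 gamma subunits, 6 did not pass, and 5 of the 7 differences were below 0. Cacng8, which like Cacng7 regulates AMPA receptors, had 8.91, 9.01 and 9.17 in the VPA arrays, against 9.43, 9.31 and 9.07 in the control arrays. VPA replicate 3 lay above control replicate 3, and the difference of -0.24 (SE 0.113) had an adjusted p of 0.301. Cacng1, Cacng2, Cacng4 and Cacng5 lay between -0.13 and -0.08 and Cacng3 at 0.13. Of the 4 alpha2delta subunits none passed. Cacna2d1, the binding site of gabapentin, had 8.90, 8.92 and 8.87 in the VPA arrays, against 8.60, 8.89 and 8.76 in the control arrays, and Cacna2d3, Cacna2d4 and Cacna2d2 differed by 0.04, -0.06 and -0.11.

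Of the 15 pore subunits of the Kv1 to Kv4 families none passed, 6 differed above 0 and 9 below 0, and their median was -0.05. Kcna4, which carries a rapidly inactivating A-type current, had 8.61, 8.58 and 8.01 in the VPA arrays, against 7.29, 8.12 and 7.46 in the control arrays. Control replicate 2 lay above VPA replicate 3, and the difference of 0.77 (SE 0.221) had an adjusted p of 0.106. Without control replicate 2 the difference was 1.02 with an adjusted p of 0.0263, and without VPA replicate 3 it was 0.97 with 0.039. These are the arrays that made the groups overlap, so a larger difference was fixed by leaving either out. With any other single array left out Kcna4 did not pass. Kcna7, a Kv1 subunit, was lower in every VPA array, at 6.57, 6.37 and 6.43, against 6.80, 6.62 and 6.85 in the control arrays (difference -0.30, adjusted p = 0.147).

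Kcna5, a Kv1 subunit of heart and smooth muscle, had 5.33, 5.51 and 5.91 in the VPA arrays, against 5.93, 5.61 and 6.10 in the control arrays, and its groups overlapped (difference -0.30, adjusted p = 0.377). Kcnb2, a delayed rectifier, and Kcnc2, a fast-gating subunit of rapidly firing neurons, each differed by -0.25 (adjusted p 0.292 and 0.288). Kcnd1, a subunit of A-type channels, had 8.61, 8.52 and 8.21 in the VPA arrays, against 8.29, 8.72 and 8.28 in the control arrays, and differed by 0.02 (adjusted p = 0.965). The other 9, Kcna1, Kcna2, Kcna3, Kcna6, Kcna10, Kcnc1, Kcnc4, Kcnd2 and Kcnd3, lay between -0.08 and 0.09.

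The 10 silent subunits, which assemble with Kv2 subunits and form no channel alone, lay between -0.26 and 0.05. Kcnv2, a retinal subunit, was the outermost, with 6.59, 6.58 and 6.91 in the VPA arrays, against 6.81, 6.96 and 7.08 in the control arrays (adjusted p = 0.281). Kcng2 differed by 0.007 (adjusted p = 0.978). The 3 Kv7 subunits, which carry slow currents such as the neuronal M current, differed by -0.10 for Kcnq1, -0.01 for Kcnq3 and -0.12 for Kcnq5 (adjusted p 0.563, 0.979 and 0.516).

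Of the 7 ether-a-go-go family genes none passed, and their median was 0.05. Kcnh3, a forebrain member, had 7.38, 7.34 and 7.09 in the VPA arrays, against 6.99, 6.80 and 7.08 in the control arrays. VPA replicate 3 and control replicate 3 were nearly equal, and the difference of 0.31 (SE 0.111) had an adjusted p of 0.181. Kcnh1, a brain member also studied in tumours, had 6.48, 6.25 and 6.47 in the VPA arrays, against 6.68, 6.52 and 6.67 in the control arrays (difference -0.22, adjusted p = 0.26). Kcnh5, a brain relative of Kcnh1, differed by 0.26 with overlapping groups (adjusted p = 0.33). Kcnh2, the ERG channel of cardiac repolarisation, had 7.26, 7.23 and 7.20 in the VPA arrays, against 7.06, 7.11 and 7.18 in the control arrays (difference 0.12, adjusted p = 0.479).

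The 15 inward rectifiers, which hold the resting potential, included 13 differences below 0 and no call, with a median of -0.11. Kcnj14 was 1 of the 2 above 0, with 6.33, 6.72 and 6.63 in the VPA arrays, against 6.34, 6.39 and 6.08 in the control arrays (difference 0.29, adjusted p = 0.261). Kcnj1, the ROMK channel of the kidney, had 5.61, 5.47 and 5.45 in the VPA arrays, against 5.86, 5.55 and 5.83 in the control arrays (difference -0.23, adjusted p = 0.286). Kcnj8, a pore subunit of ATP-sensitive channels, differed by -0.11 (adjusted p = 0.542). Of the 15, 9 lay at or below the olfactory receptor percentile. Across the array, genes at or below that percentile had a median of -0.077, against -0.007 for genes above it, and the 57 and 70 channel genes on each side had medians of -0.074 and -0.014.

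The 14 tandem pore-domain channels, which carry the background leak current, lay between -0.16 and 0.13, with no call. Kcnk5, an acid-sensitive member found in epithelia, had 8.70, 8.66 and 8.70 in the VPA arrays, against 8.48, 8.61 and 8.59 in the control arrays. Every VPA array lay above the controls, by a difference of 0.13 (adjusted p = 0.434). Kcnk16, a channel of pancreatic islets, had 6.59, 6.70 and 6.54 in the VPA arrays, against 6.86, 6.74 and 6.70 in the control arrays (difference -0.16, adjusted p = 0.376).

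Of the 8 genes of the calcium- and sodium-activated channel families, which include the pH-gated sperm channel Kcnu1, Kcnn3 rose and 7 did not pass. Kcnt2, a sodium-activated channel, had 8.06, 7.84 and 7.75 in the VPA arrays, against 6.60, 7.45 and 7.50 in the control arrays. The groups did not overlap, but control replicate 1 lay far below the other controls. The difference of 0.70 (SE 0.213) had an adjusted p of 0.125. The median of the class was -0.13, and its other 6 members lay between -0.24 and 0.002. Kcnma1, the large-conductance channel, had 5.96, 5.67 and 5.90 in the VPA arrays, against 5.98, 6.04 and 5.99 in the control arrays (difference -0.16, adjusted p = 0.416). A second probe set annotated to Kcnma1 differed by -0.40 (limma, unadjusted p = 0.00344). The kept and the second probe set averaged 5.92 and 5.12 over the 6 arrays, below the olfactory receptor percentile, and their annotations list no sequence in common. Kcnn4, the intermediate-conductance channel of blood cells and epithelia, differed by -0.13 with overlapping groups (adjusted p = 0.599), and Kcnn2 by -0.24 (adjusted p = 0.36).

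Of the 17 auxiliary genes of potassium channels, Kcnab2 rose and 16 did not pass. Kcnab3, another Kv1 beta subunit, had 7.98, 8.24 and 8.07 in the VPA arrays, against 7.79, 7.96 and 7.48 in the control arrays (difference 0.35, adjusted p = 0.19), while Kcnab1 differed by 0.04. Kcnmb4, the neuronal beta subunit of large-conductance channels, had 5.94, 6.17 and 6.20 in the VPA arrays, against 6.34, 6.34 and 6.39 in the control arrays. The groups did not overlap, and the difference of -0.25 (SE 0.0938) had an adjusted p of 0.201. Kcnip3, a calcium sensor that binds Kv4 channels and also acts as a transcriptional repressor, differed by 0.19 (adjusted p = 0.448), and Kcnip1, Kcnip2 and Kcnip4 by -0.07, -0.06 and -0.06. The MinK-related subunits Kcne1, Kcne1l, Kcne2, Kcne3 and Kcne4 lay between -0.19 and 0.19. The 3 Kcn transcripts that are antisense or noncoding, Kcnd3os, Kcnmb4os1 and Kcnmb4os2, differed by 0.09, -0.08 and -0.16, and none passed.

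**Figure D3:**
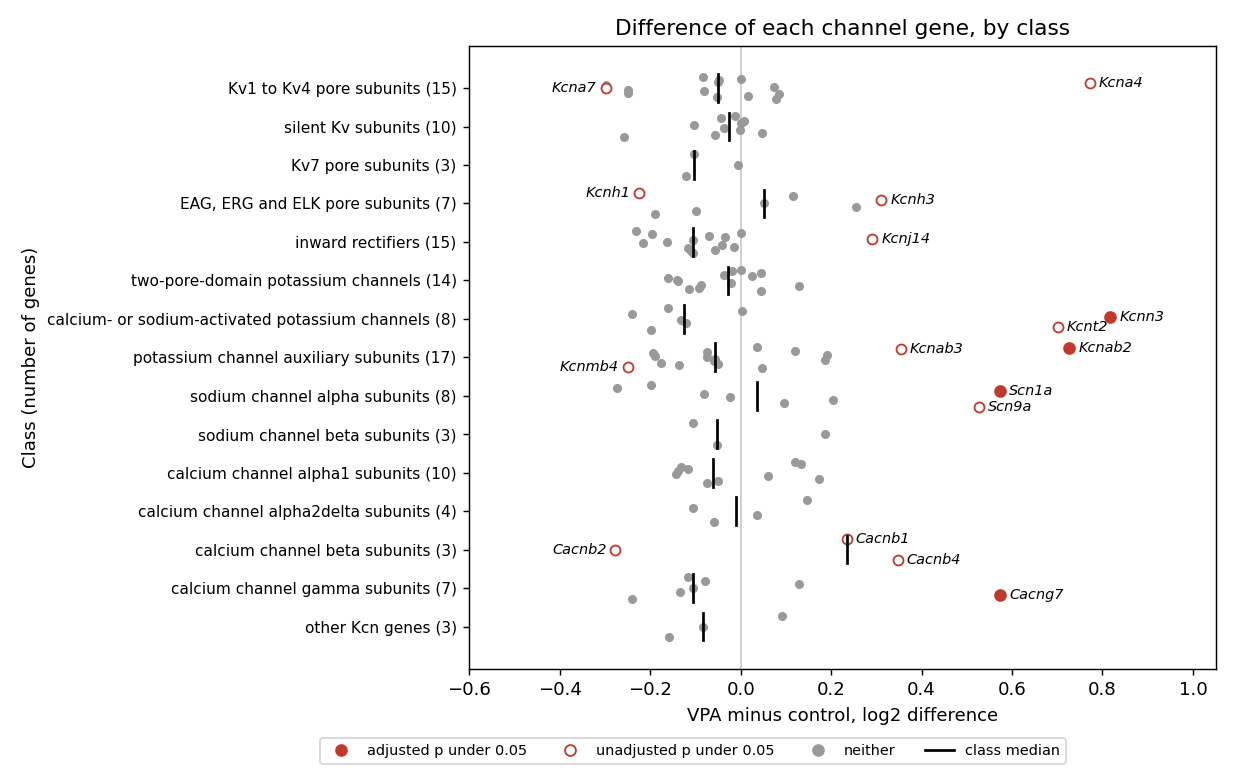
VPA minus control difference on the log2 scale (horizontal axis) of all 127 channel genes in 15 classes (vertical axis, number of genes in brackets). Filled red points passed at an adjusted p under 0.05, open red points at an unadjusted p under 0.05, and black bars are class medians. The 7 largest differences, from 0.53 to 0.82, are all above 0, and the lowest value is -0.30 for Kcna7.

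The sizes of the differences were uneven between directions. The highest was 0.82 and the lowest -0.30, although 81 of the 127 genes differed below 0 and 46 above it. Over all 19938 genes, 11684 differed below 0 and 8254 above it. Of the 12 genes that were higher before adjustment, VPA replicate 3 was the lowest VPA array in 8, and control replicate 2 was the highest control array in 6. Averaged over all 127 genes, the deviation from each gene's own mean was 0.06, -0.07 and -0.004 in VPA replicates 1, 2 and 3, against 0.04, -0.05 and 0.02 in the control replicates, so the arrays of both groups were intermingled.

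**Figure D4:**
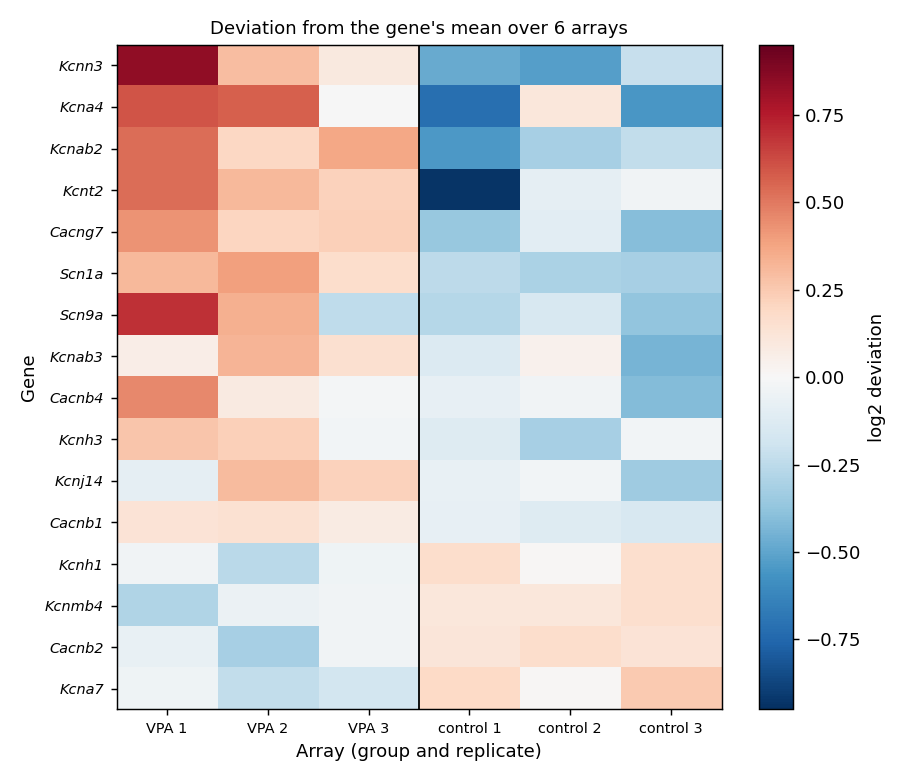
Deviation of each array (horizontal axis) from the gene's mean over 6 arrays, on the log2 scale (colour), for the 16 channel genes with an unadjusted p under 0.05 (vertical axis, sorted by difference). These genes were picked by their difference, so the colour step between VPA and control is a description. VPA replicate 3 is near white or blue in Kcnn3, Kcna4 and Scn9a, in which VPA replicate 1 is dark red, and control replicate 1 is the darkest blue in Kcnt2.

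Of 13 measured neuronal and neuroendocrine markers, 5 rose (Syn1, Uchl1, Stmn2, Syp and Map2), none fell and 8 did not pass, with a median of 0.25, beside 1.71% of all genes higher and a median of -0.035. Of the 8, 4 differed below 0, Chga by -0.05, Chgb by -0.11, Insm1 by -0.07 and Rbfox3 by -0.14, and in Chgb and Rbfox3 every VPA array lay below the control arrays. The mean log2 level of the list was 8.48, 8.31 and 8.09 in VPA replicates 1, 2 and 3, against 7.70, 7.82 and 7.73 in the control replicates, and VPA replicate 3 was the lowest VPA array in all 5 markers that rose. This list was put together with the earlier result for such genes known, and the part of a neuronal programme in the channel differences was not tested.

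Of 49 measured cation channels of other families, 1 rose, none fell and 48 did not pass, with a median of -0.06, beside 1.71% of all genes higher and 0.632% lower. The gene that rose was Trpc1, a subunit of receptor-operated calcium-permeable channels, with 9.71, 9.36 and 9.44 in the VPA arrays, against 8.44, 8.95 and 8.93 in the control arrays. Trpc1 rose by 0.73 on the log2 scale (SE 0.149, limma adjusted p = 0.04). Of 39 proteins that bind, anchor or regulate these channels none passed, 3 were higher and 3 lower before adjustment, beside 9.82% and 8.30% of all genes, and the median was -0.03. Dpp6, an auxiliary subunit of Kv4 channels, had 8.94, 8.97 and 8.99 in the VPA arrays, against 8.54, 8.72 and 8.63 in the control arrays (difference 0.34, adjusted p = 0.0742). Rrad, a GTPase that inhibits calcium channels, had 6.63, 6.55 and 6.52 in the VPA arrays, against 6.90, 6.72 and 6.81 in the control arrays (difference -0.24, adjusted p = 0.182).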

How the data were processed

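Total RNA was labelled for Affymetrix mouse Gene ST arrays. The authors deposited log2 values, made by RMA with the Expression Console of Affymetrix per the submitters' processing notes. The sources used here give neither versions nor a genome build. The 3 VPA and 3 control samples were grouped by title.

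Of 35556 probe sets, 21789 had exactly 1 gene symbol. The probe set with the highest mean was kept per gene, which gave 19938 genes, and 7 of the 127 channel genes had more than 1 probe set. All genes were fitted at once in limma 3.58.1 (lmFit, eBayes, R 4.3.3) on group alone. Tests were two-sided, with Benjamini-Hochberg adjustment over all genes. The fit was tested on simulated data. Promoter sequences are RefSeq's, of build GRCm38.p6, and neighbouring genes were read from the same RefSeq annotation.

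The members, lists and alternatives were chosen with earlier results of these data known. Named channel genes were those called, the 10 with the smallest p in each direction, in each class those with the highest mean and the smallest p, and 10 picked by name, of which Kcnq1ot1 had no value. Other members are named for completeness, and Kcna5, Kcnt2, the second probe sets and those shared between genes were given with their values seen. Lists of other channels, partners and markers are given as counts with up to 3 called genes or the 2 with the smallest p, except that all 5 called neuronal markers, the 4 neuronal markers below 0 and 4 markers that bear on the labels are named. Alternatives were 2 filters on low values (at least 6 in at least 3 arrays, or a mean above the 95th percentile of olfactory receptor genes), 2 normalizations, a trended and robust prior, the replicate block, array weights, the mean of probe sets, all probe sets, an adjusted p under 0.1, and leaving out arrays.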

Additional observations from a re-analysis of the deposited data

How the results depend on the processing

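The count of channel genes that rose was 4, and it ranged from 0 to 6 when 1 array was left out. It was 0 with all probe sets tested together, and it stayed within 1.5 times of 4 under the other alternatives. With the olfactory receptor filter it was 3, because Scn1a lay below that level and was not tested. The count that fell was 0 throughout, except for 1, Kcna5, without control replicate 2 and VPA replicate 3 together. These are its lowest control array and its highest VPA array, so a larger difference was fixed by leaving them out. The count over all genes, 467, was 1199 with the replicate block, 714 with array weights, 2 with all probe sets, 1349 without that pair of arrays and 1073 at an adjusted p under 0.1, and it ranged from 20 to 815 when 1 array was left out. For the other cation channels and channel partners the count of 1 was 2 with the olfactory receptor filter, 3 with the replicate block, 0 with all probe sets, 5 without the pair and 2 at an adjusted p under 0.1, and it ranged from 0 to 1 when 1 array was left out. The cause was not tested, except that all probe sets and left-out arrays change the number tested or the number of samples.

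The main fit did not use replicate numbers as pairs, and whether they pair the samples was not tested. Deviations of same-numbered arrays correlated at 0.0841, 0.451 and 0.284 across genes, against -0.4293 to 0.2001 for arrays of different numbers. Control replicate 1 correlated best with VPA replicate 3. Every other array correlated best with the same-numbered array of the other group. With the replicate block 5 channel genes rose, the 4 and Kcna4 (adjusted p = 0.0218).

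Signs turned, without a call, for genes near 0. Without 1 array, Kcng2 ranged from -0.0658 to 0.0914, Kcnd1 from -0.0649 to 0.158, Scn2a from -0.188 to 0.0364, Cacna1c from -0.247 to -0.0546, Cacna1g from -0.021 to 0.142 and Cacna1h from -0.00554 to 0.278. Without the pair, Kcng2 was at -0.0276, Cacna1c at 0.021, Kcnd1 at 0.277, Cacna1h at 0.352 and Scn2a at -0.216. With a second quantile normalization Kcng2 was at -0.0445, Kcnd1 at -0.0422 and Cacna1i at 0.0203. Kcng2 was at -0.014 with array weights and Scn2a at 0.0196 with the mean of its probe sets. The arrays give no signal over background, so values of genes at low levels cannot be called detected.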
